A study of Mus musculus with 908 samples.

Results

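Keratins 8, 18, 7 and 19 are the intermediate filament proteins of simple epithelia, the single-layered linings of glands, gut and airway. Their transcripts were followed in single tumour cells of mouse skin squamous cell carcinoma. The 4 genes, Krt8, Krt18, Krt7 and Krt19, were picked by symbol from 46517 gene rows, and each had exactly 1 row. The study sorted tumour cells before therapy and after ACT (adoptive cell transfer, an infusion of immune cells), and sequenced them 1 cell per well with Smart-seq2, which reads full-length polyadenylated transcripts.

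All tumours expressed HrasG12V, an activated Ras oncogene, from a TRE promoter that needs the transactivator rtTA3, and all animals were labelled as mixed sex and postnatal day 60 to 90. Before ACT the strain was TRE-HrasG12V;SBE-mCherry-PGK-rtTA3, in which SMAD-binding elements drive mCherry, so mCherry reports TGF-beta signalling. From these tumours 4 gates were sorted. Reporter-positive cells were integrin α6+, mCherry+, CD34+ and CD44+ and came on plates named CSC1 and CSC2. CD44+ reporter-negative cells were α6+, mCherry- and CD34-, CD44-negative α6+ cells also lacked CD44, and α6-negative cells lacked all of these markers. After ACT the strain was TRE-OVA;TRE-HrasG12V:PGK-rtTA3P2AmCherry, which adds ovalbumin as an antigen and labels cells with mCherry from the PGK promoter. These cells were sorted on mCherry alone and came on plates OT2 and OT_B. Strain, meaning of mCherry and gate therefore differ together with therapy, and their parts cannot be told apart. Cells positive for CD45, CD117, CD140a or CD31 had been removed from every gate. No animal is named, so each gate is 1 sample: values below describe these cells, carry no test, and their intervals cover counting error only.

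Values are TPM, a length-normalised share of a library's transcripts, and a gene counted as detected at 1 TPM or more. Libraries with at least 2000 detected genes were used. They were 73 reporter-positive libraries on CSC1 and 32 on CSC2, 15 CD44+ reporter-negative, 91 CD44-negative α6+, 43 α6-negative, and 87 on OT2 and 90 on OT_B after ACT. Median genes per library were 7760 in the reporter-positive, 7222 in the CD44+ reporter-negative and 6810 in the CD44-negative α6+ gate. They were 5521 in the α6-negative gate and 6657 after ACT. Keratinocyte markers led over the marker lists of other cell types in every reporter-positive library, while fibroblast markers led in 13 and pericyte or muscle markers in 3 of the 43 α6-negative libraries. In the CD44+ reporter-negative gate keratinocyte markers led in 12 of 15 libraries, those of pericytes or muscle in 2 and those of fibroblasts in 1. Whole-profile correlation tied 72 of 73 CSC1 libraries, 27 of 32 CSC2 libraries and 15 of 15 CD44+ reporter-negative libraries to a near-identical library labelled after ACT, on plates OT_C and OT_D. The median r of these pairs was 0.91, 0.91 and 0.92, and the lowest was 0.85, 0.67 and 0.82. From the files alone the right label cannot be told. Those 2 plates, and OT_A and OT1, which repeat OT2 and OT_B, were left out of the comparisons, and the results on the reporter-positive and CD44+ gates rest on their label before ACT.

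Keratin filaments form only from pairs of a type I and a type II keratin. Krt8 is the type II and Krt18 the type I keratin of nearly all simple epithelia, and Krt7 (type II) and Krt19 (type I) join them in ducts and glands. An unpaired keratin protein is usually degraded. Normal interfollicular epidermis builds its filaments from Krt5 and Krt14 in the basal layer, and Krt8 and Krt18 are known there mainly from the embryo, Merkel cells and carcinomas.

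In the GENCODE M21 annotation of mm10, the build named in the submitters' processing notes, Krt8 (ENSMUSG00000049382) lies on chromosome 15 from 101996698 to 102004482 on the minus strand and has 9 exons. Krt18 (ENSMUSG00000023043) lies beside it from 102028180 to 102032027 on the plus strand with 7 exons, and is the type I gene that lies within the type II cluster. The start sites of these neighbours point away from each other and are 23698 bases apart. Krt7 (ENSMUSG00000023039) lies in the same cluster from 101411043 to 101430313 on the plus strand, whereas Krt19 (ENSMUSG00000020911) lies in the type I cluster on chromosome 11, from 100140810 to 100148665 on the minus strand. All 4 are protein coding.

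The stretches just upstream of Krt8 and Krt18 are shown because these neighbours were found in the same cells. They come from the RefSeq promoter table of GRCm38.p6, are cut where the annotated transcripts begin, and read 5′ to 3′ on the gene's own strand. The Krt8 stretch is 110 bases, at chr15:102004483-102004592 on the minus strand, and the Krt18 stretch lies at chr15:102027966-102028179 on the plus strand. Capitals mark matches to the E-box motif CANNTG.
Krt8: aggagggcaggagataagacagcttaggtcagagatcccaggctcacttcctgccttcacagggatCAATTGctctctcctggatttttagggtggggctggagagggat
Krt18: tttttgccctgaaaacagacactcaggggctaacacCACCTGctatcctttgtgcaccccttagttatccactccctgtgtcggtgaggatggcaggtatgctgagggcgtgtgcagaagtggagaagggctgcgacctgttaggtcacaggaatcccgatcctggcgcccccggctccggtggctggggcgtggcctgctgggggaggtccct
Of 6 motifs searched on both strands in the 250 bases before each RefSeq start, only the E-box was found upstream of Krt8 (2 matches) and Krt18 (1 match), and 66.2% of 32851 promoters hold it. The form CACCTG was among the matches of both genes and of Krt7. The windows run past the annotated gene starts, and the CACCTG of Krt8 and most of the Krt7 window lie inside the annotated genes. Of the other 5 motifs, the AP-1 motif TGANTCA (in 6.75% of promoters), the core promoter motif TATAAA (in 12.4%), the motif CCAAT (in 33.8%) and the ETS motif CCGGAA (in 12.03%) had no match in the Krt8, Krt18 and Krt7 windows, and the GC box (GGGCGG, 32.7%) matched Krt7 alone. The GC content of the Krt8 and Krt18 windows was 58% and 60.4%, against a median of 52.4% over all promoters.

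Krt18 was the most widespread member. In reporter-positive libraries its level ran from 0 through a median of 7.96 to 428.2 TPM, with a mean of 44.1 TPM, and 62 libraries had it (59.05%, exact 95% interval 49.02 to 68.5%). The median was 0 in every other gate. The highest library reached 85.8 TPM among CD44+ reporter-negative cells, with 2 of 15 detected (13.3%, 1.66 to 40.5%). Most reporter-positive libraries thus had Krt18 and most libraries of every other gate had none, while the ranges overlapped.

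In CD44-negative α6+ cells Krt18 was found in 4 of 91 libraries (4.40%, 1.21 to 10.9%), at 1.15, 4.15, 7.17 and 34.97 TPM. In α6-negative cells it was found in 1 of 43 (2.33%, 0.0589 to 12.3%), at 7.78 TPM, in a library led by pericyte or muscle markers. After ACT it was found in 18 libraries (10.2%, 6.14 to 15.6%), with a highest value of 518.73 TPM, the highest Krt18 value of any gate. The share after ACT lay between those of the CD44-negative α6+ and the reporter-positive gates, and its interval overlapped that of the CD44-negative α6+ gate.

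Krt8, the partner, was rarer and as high where present. In reporter-positive libraries it ran from 0 through a median of 0 to 1156.66 TPM, with a mean of 37.5 TPM, and 34 libraries had it (32.4%, 23.6 to 42.2%). A single CD44+ reporter-negative library had it, at 53.29 TPM (1 of 15). It was listed at 0 in all 91 CD44-negative α6+ and all 43 α6-negative libraries, which allows shares of up to 3.30% and 6.98%. After ACT 7 libraries had it (3.95%, 1.60 to 7.98%), between 7.30 and 504.03 TPM. Apart from these 8 libraries, detected Krt8 was found in the reporter-positive gate, although even there most libraries were at 0.

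A minority of cells carried these means. The 5 highest libraries held 62.7% of the summed Krt8 TPM of the reporter-positive gate and 34.4% of its Krt18. The highest Krt8 library, on CSC2, had 1156.66 TPM of Krt8 and 290.1 TPM of Krt18. After ACT the 5 highest libraries held 98.2% of Krt8 and 77.3% of Krt18.

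**Figure D1:**
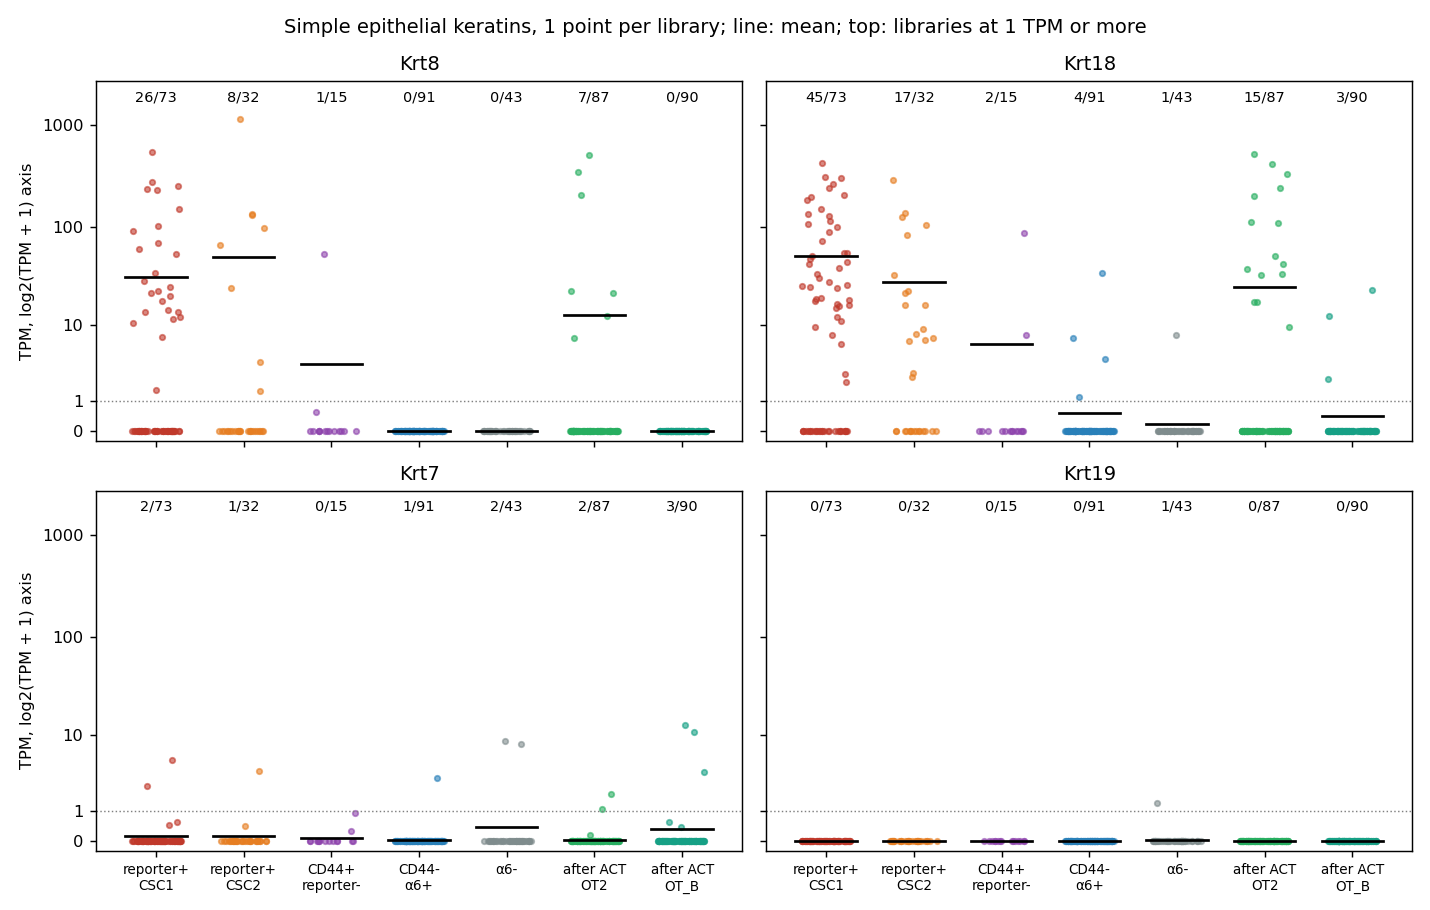
TPM of the 4 keratins on a log2(TPM + 1) axis, 1 point per library, by gate and plate, with a line at the mean of each plate; the fractions give libraries at 1 TPM or more (dotted line). Krt8 and Krt18 were frequent on CSC1 and CSC2, present in part of OT2 and rare or listed at 0 elsewhere, and Krt7 did not pass 12.75 TPM nor Krt19 1.36 TPM.

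Krt7, the type II keratin of ducts and glands, was found in few libraries of any gate and never above 12.75 TPM. It was detected in 3 reporter-positive (2.86%, 0.593 to 8.12%), 0 of 15 CD44+ reporter-negative, 1 of 91 CD44-negative α6+, 2 of 43 α6-negative and 5 libraries after ACT (2.82%, 0.923 to 6.47%). The reporter-positive values were 2.48, 3.90 and 5.23 TPM, and the 2 α6-negative libraries, at 7.93 and 8.63 TPM, were led by fibroblast markers. The gates overlapped throughout.

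Krt19, a type I keratin that stands out for its very short tail, was detected in a single library, α6-negative and led by fibroblast markers, at 1.36 TPM beside 8.63 TPM of Krt7. All other libraries listed it at 0. In the reporter-positive gate a count of 0 allows a share of up to 2.86%. Of 77 ribosomal protein rows, only those of the tissue-restricted paralogues Rpl10l and Rpl3l were at 0 in every library.

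Mean levels were compared as the ratio of mean TPM plus 1, a scale that understates changes of weak genes. The log2 fold of Krt18 in reporter-positive against CD44-negative α6+ cells was 4.89 (44.1 against 0.521 TPM, 29.7-fold). For Krt8 no fold is given, because the other gate was listed at 0. In this comparison 9.8% of 11887 genes were at least 2-fold higher and 4.78% at least 2-fold lower, and Krt18 stood at the 99.9th percentile of log2 folds. Over CD44+ reporter-negative cells the log2 folds were 3.07 for Krt8 (37.5 against 3.59 TPM, 8.39-fold) and 2.64 for Krt18 (44.1 against 6.24 TPM, 6.24-fold), where 12.6% of genes were at least 2-fold higher and 16.5% lower. Without the single CD44+ library with Krt8, which also has the most Krt18 of its gate, they were 5.21 and 4.86, and among keratinocyte-led libraries 2.81 and 2.36. Among libraries with 6000 to 8000 genes these became 5.40 and 4.699, since the CD44+ library with the most Krt8 and Krt18 lies outside that band. In the band Krt8 was detected in 0 of 10 CD44+ libraries (mean 0.055 TPM) and Krt18 in 1 of 10 (mean 0.775 TPM). The pseudocount outweighs these means and largely sets the folds. The same holds without that library over all depths, where the CD44+ means were 0.039 and 0.554 TPM.

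CD44+ reporter-negative over CD44-negative α6+ cells gave a log2 fold of 2.25 for Krt18 (6.24 against 0.521 TPM), with 16.8% of genes at least 2-fold higher. It rested on 2 of 15 libraries, was 0.030 without the highest of them and was 0.61 among libraries with 6000 to 8000 genes. The sex of the animals differed with the gate: among CD44+ reporter-negative cells 14 of 15 libraries had Xist, among reporter-positive cells none did. No α6-negative library and none after ACT had Xist either. The CD44+ library without Xist, with Y-linked transcripts at 0.28 TPM, was the single library of its gate with Krt8. It also had the most Krt18 of that gate, so it differed in Xist from the other libraries sorted with it. Within the CD44-negative α6+ gate Krt18 was found in 1 of 42 libraries with Xist alone and in 3 of 45 with Y-linked transcripts alone. The part of sex in the difference between gates was not tested.

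After ACT, Krt8 and Krt18 were lower than in reporter-positive cells, with log2 folds of -2.39 (6.35 against 37.5 TPM) and -1.75 (12.5 against 44.1 TPM), where 3.17% of genes were at least 2-fold higher and 8.6% lower. Krt18 was higher than in CD44-negative α6+ cells, with a log2 fold of 3.15 (12.5 against 0.521 TPM) and 3.91% of genes at least 2-fold higher. Without the highest library after ACT the log2 fold of Krt8 over reporter-positive cells was -3.09. These comparisons share the reporter-positive or CD44-negative libraries with those above.

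The plates after ACT differed. On OT2, Krt18 was found in 15 of 87 libraries (17.2%, 9.98 to 26.8%) with a mean of 24.9 TPM, and Krt8 in 7 of 87. On OT_B, Krt18 was found in 3 of 90 (3.33%, 0.693 to 9.43%) with a mean of 0.423 TPM, and Krt8 in 0 of 90. Without OT2 the log2 fold of Krt18 over CD44-negative α6+ cells turned to -0.10, and that over reporter-positive cells was -4.99. Without OT_B they were 4.09 and -0.80. Within OT2, 14 of 47 libraries in plate rows A to D had Krt18 and 1 of 40 in rows E to H, a split chosen after the values were seen. On OT_A, which repeats OT2, the same row blocks had 12 of 39 and 1 of 40. Median genes were 7084 and 6717 in the 2 row blocks of OT2. The labels give no source per row, and whether the blocks hold different tumours was not tested.

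The reporter-positive plates were closer to each other. Krt18 was found in 45 of 73 CSC1 libraries (61.6%, 49.5 to 72.8%) and 17 of 32 CSC2 libraries (53.1%, 34.7 to 70.9%), with means of 51.3 and 27.9 TPM. Krt8 was found in 26 of 73 (35.6%, 24.7 to 47.7%) and 8 of 32 (25%, 11.5 to 43.4%), with means of 31.8 and 50.4 TPM. The highest library of each plate weighed on these Krt8 means, which were 24.7 TPM on CSC1 and 14.7 TPM on CSC2 without it, the opposite order. The intervals of the shares overlapped for both genes. The 6 reporter-positive libraries without a partner labelled after ACT had Krt18 in 3 and Krt8 in 2.

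Detection also went with the number of genes per library. In reporter-positive cells Krt18 was found in 2 of 8 libraries with 2000 to 4000 genes and in 25 of 36 with 8000 or more. Among libraries with 6000 to 8000 genes, Krt18 was found in 32 of 58 reporter-positive (55.2%, 41.5 to 68.3%), 2 of 69 CD44-negative α6+ (2.90%, 0.353 to 10.1%) and 11 libraries after ACT (8.87%, 4.51 to 15.3%). Krt8 was found in 17 of 58 (29.3%), 0 of 69 and 3 libraries after ACT (2.42%). In this band too, both shares were higher in reporter-positive cells than in CD44-negative α6+ cells or after ACT. The order among the other gates differed from that over all libraries, but the changes rested on single libraries and the intervals overlapped. Krt18 was found in 1 of 15 α6-negative libraries (6.67%, 0.169 to 31.9%), the library led by pericyte or muscle markers. Krt8 was found in 0 of 10 CD44+ reporter-negative ones. With 8000 genes or more, Krt18 was found in 25 of 36 reporter-positive libraries (69.4%) and 6 of 9 after ACT (66.7%, 29.9 to 92.5%). Krt8 was found in 15 of 36 (41.7%) and 4 of 9 (44.4%, 13.7 to 78.8%). The 9 libraries after ACT were all on OT2. In this deepest band the shares of the 2 gates were thus close, with wide intervals after ACT.

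**Figure D2:**
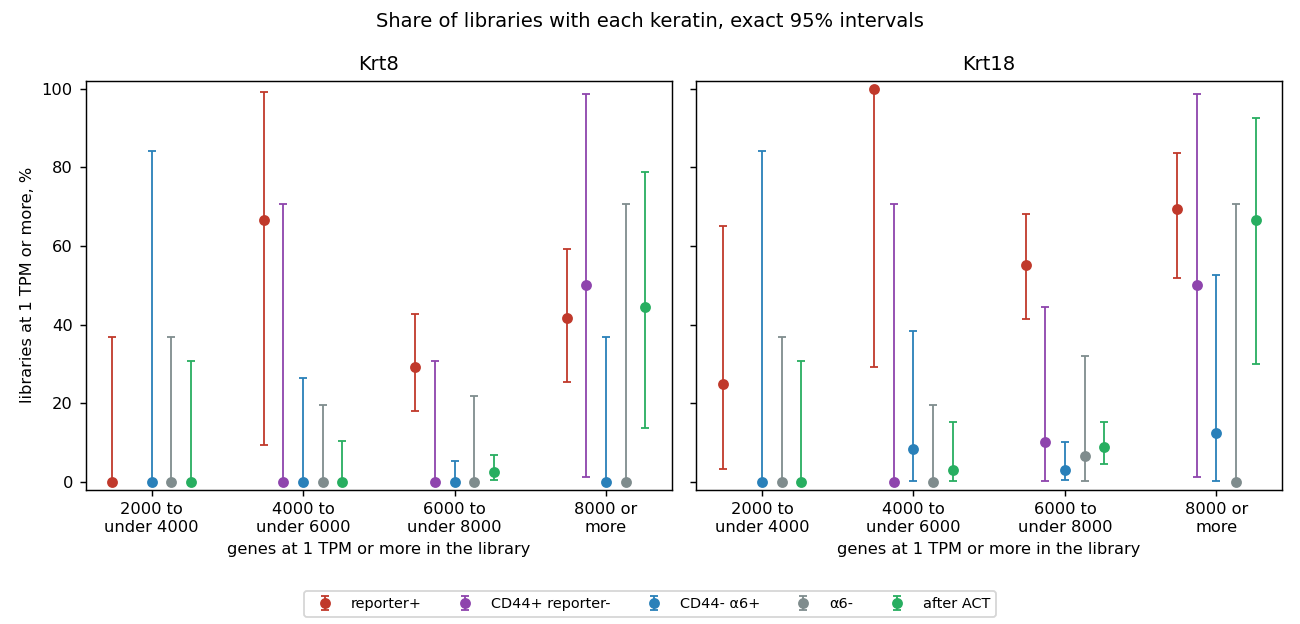
Share of libraries at 1 TPM or more for Krt8 and Krt18, in percent with exact 95% intervals, by the number of genes detected in the library and by gate. With 6000 to 8000 genes the reporter-positive share of Krt18, 55.2%, lies above the intervals of the CD44-negative α6+ gate and of the cells after ACT. With 8000 genes or more the shares after ACT (Krt18 66.7%, Krt8 44.4%, n = 9) lie close to the reporter-positive ones (69.4% and 41.7%). Several bins hold under 10 libraries.

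Partners were found together in single cells. Of the 34 reporter-positive libraries with Krt8, 33 also had Krt18 (97.1%, 84.7 to 99.9%), and the exception had 1.54 TPM of Krt8. Of the 62 with Krt18, 33 had Krt8 (53.2%, 40.1 to 66.02%), 29 had Krt18 alone and 42 libraries had neither. After ACT all 7 libraries with Krt8 had Krt18, and 11 had Krt18 alone. The single CD44+ library with Krt8 also had Krt18, at 85.8 TPM. Among the libraries compared, Krt8 without Krt18 was therefore seen in 1, and Krt18 without Krt8 in every gate. On the repeat plates, 1 of 27 libraries with Krt8 on OT_C and 2 of 10 on OT_D had no Krt18.

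Krt8 was found more often where Krt18 was higher, though not at each step. In reporter-positive libraries Krt8 was detected in 2 of 12 with Krt18 at 1 to 10 TPM, 14 of 26 at 10 to 50 TPM, 2 of 6 at 50 to 100 TPM and 15 of 18 at 100 TPM or more. Libraries with Krt18 alone had a median Krt18 of 18.95 TPM (2.08 to 196.39), against 54.59 TPM (7.73 to 428.2) where Krt8 was present, and their median genes were 7812 and 7892. The levels overlapped widely, and depth in genes was nearly the same.

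Levels of the partners went together across cells. Over all reporter-positive libraries (73 and 32 by plate) Pearson's r of log2(TPM + 1) was 0.70 and Spearman's rho 0.68, with r of 0.68 on CSC1 and 0.73 on CSC2. Over the 33 double-positive libraries r was 0.65. The ratio of Krt18 to Krt8 TPM there had a median of 1.48 but ran from 0.161 to 21.9, and Krt18 was the higher in 21 of 33. On OT2 (n = 87) r was 0.69, and the ratio in 7 libraries had a median of 1.49 (0.763 to 32.8). These cells share plates and depth, and the correlations are descriptions.

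**Figure D3:**
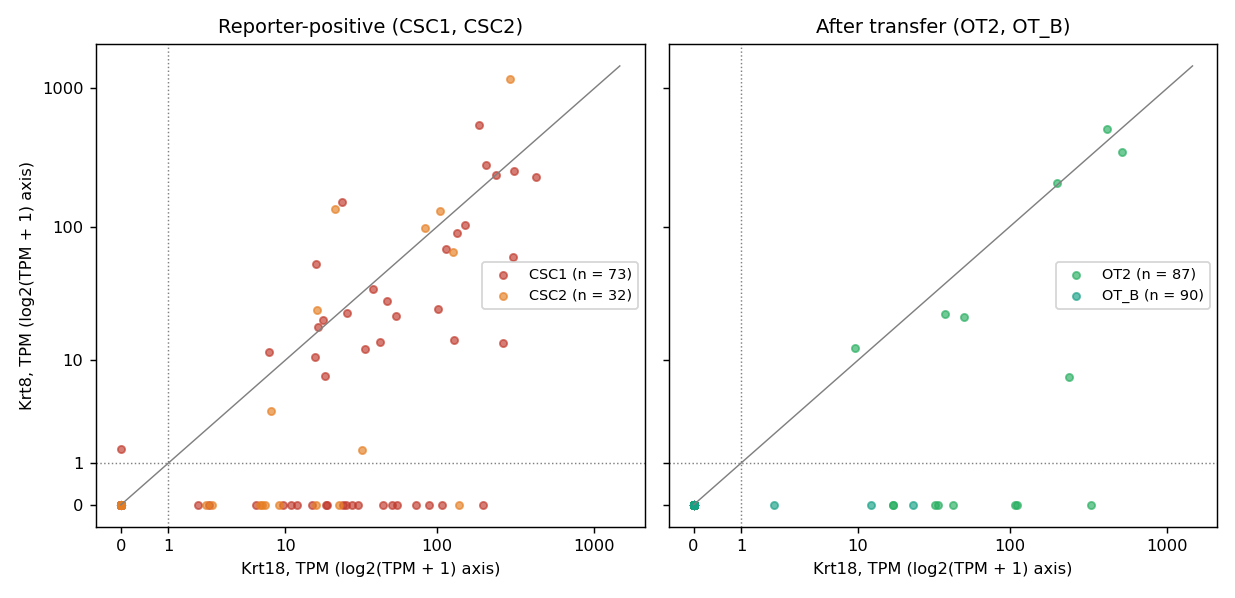
Krt8 against Krt18 in single libraries, TPM on log2(TPM + 1) axes, for reporter-positive cells (left) and cells after ACT (right), with the line of equal TPM and dotted lines at 1 TPM. Points lie along the diagonal or on the Krt18 axis, with 33 and 7 libraries holding both transcripts and 1 reporter-positive library holding Krt8 alone.

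Krt7 and Krt18, a pair that can also form filaments, met in fewer cells. All 3 reporter-positive libraries with Krt7 had Krt18, at 2.61, 28.27 and 104.22 TPM, and the last of these also had Krt8. The single CD44-negative α6+ library with Krt7 had the highest Krt18 of that gate, 34.97 TPM. After ACT none of the 5 libraries with Krt7 had Krt18 or Krt8. With so few libraries the pattern is given as counts.

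Repeat libraries show how often a detection was found again in a near-identical library. Near-identical pairs numbered 72 for CSC1, 27 for CSC2, 17 for the CD44+ plate, 68 for OT2 and 59 for OT_B. The 17 hold 15 libraries of that plate, and the well was the same in 71 of 72, 27 of 27, 15 of 17, 46 of 68 and 38 of 59 pairs, so the match rests on the profile and not on the well. CSC1 and the plates of the CD44+, CD44-negative α6+ and α6-negative gates each also held 1 such pair within the plate, counted here as separate libraries. Over the pairs between plates, Krt18 was found in both members of 72 pairs, in the first alone in 3 and in the repeat alone in 3. Krt8 was found in both of 40 pairs and in the repeat alone in 4. Values found in 1 library of a pair alone reached 10.27 TPM for Krt8 and 16.17 TPM for Krt18, while higher values were always found again. Both came from the same pair, in which the CSC2 library had Krt18 without Krt8 and its repeat Krt8 without Krt18. The CSC1 pair from different wells was among those with Krt8 in the repeat alone, at 1.02 TPM. Krt7 was found in both of 5 pairs and in 1 library of 4 others, and Krt19 was listed at 0 in all. Whether repeats start from the same amplified cDNA was not given in the sources used, and if they do, these counts do not include loss of transcripts before amplification.

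**Figure D4:**
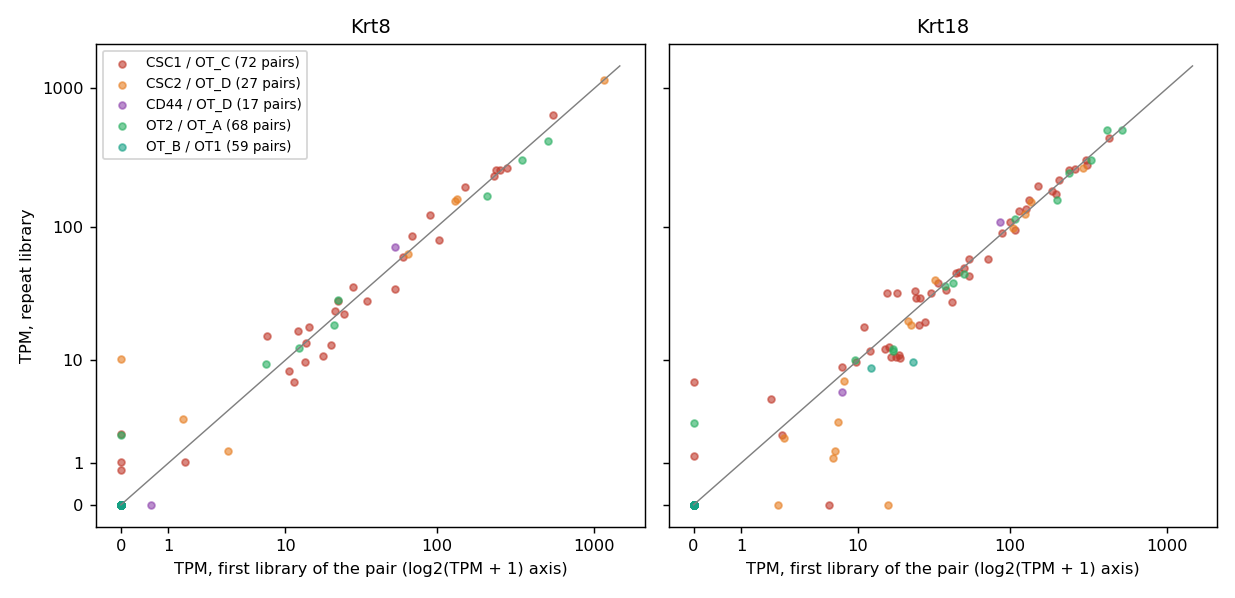
TPM of Krt8 and Krt18 in pairs of near-identical libraries, first library against repeat on log2(TPM + 1) axes, coloured by plates, with the line of equality. Every value above 16.17 TPM was found again in the repeat, and points on an axis are detections in 1 of the 2 libraries, of which there were 4 for Krt8 and 6 for Krt18.

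Simple keratins were a small part of the keratin transcripts of these cells. In double-positive reporter-positive libraries, Krt18 and Krt19 made up a median of 1.03% (at most 8.56%) of all type I keratin TPM, and Krt8 and Krt7 a median of 1.08% (at most 35.7%) of type II. The epidermal pair stayed abundant, with Krt5 at a median of 1340 TPM (390.1 to 3957) and Krt14 at 5406 TPM (1044 to 12708). In libraries with neither Krt8 nor Krt18 the medians were 1760 and 7594 TPM, with overlapping ranges. On OT2 the double-positive libraries held a median of 1.64% of type I and 0.403% of type II as simple keratins.

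The wound keratins Krt16, Krt6a and Krt6b had lower medians in double-positive than in double-negative libraries. Krt16, a type I keratin of wounded and hyperproliferative epidermis, had a median of 64.7 TPM (12.4 to 3830) in double-positive, 519.97 TPM (13.3 to 11002) in Krt18-only and 3436 TPM (0 to 9338) in double-negative reporter-positive libraries. The type II keratins Krt6a and Krt6b differed in the same direction: Krt6b had medians of 18.5, 27.8 and 521.6 TPM and Krt6a of 1399, 1755 and 3856 TPM. The ranges overlapped for each gene.

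On CSC2 the Krt6a medians were 1183, 3561 and 3170 TPM, highest with Krt18 alone. For Krt16 the order held on CSC1, with medians of 63.2, 121.3 and 3920 TPM, and on CSC2, with 199.3, 1770 and 3137 TPM. In libraries with 6000 to 8000 genes it was 80.6, 313.8 and 4497 TPM. On OT2 the medians were 79.1 TPM in 7 double-positive, 52.6 TPM in 8 Krt18-only and 2874 TPM in 72 double-negative libraries. Krt17, another stress keratin, did not follow, with reporter-positive medians of 1105, 740.6 and 901.2 TPM.

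**Figure D5:**
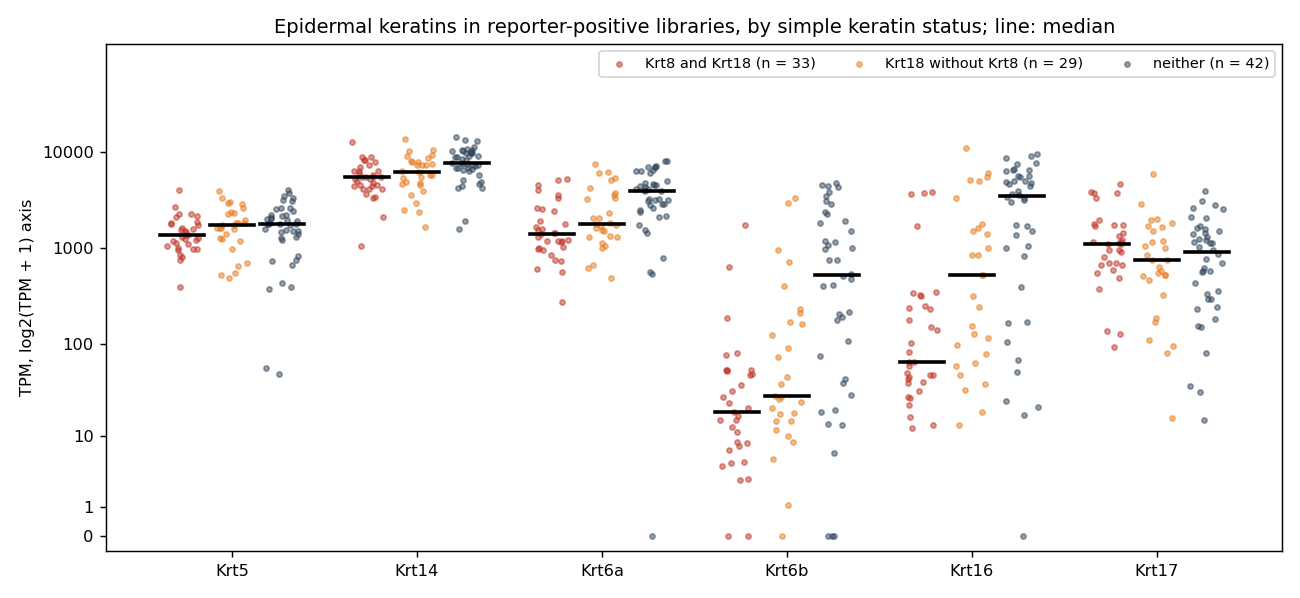
TPM of 6 epidermal keratins on a log2(TPM + 1) axis in reporter-positive libraries with Krt8 and Krt18 (n = 33), with Krt18 alone (n = 29) and with neither (n = 42), 1 point per library and a line at the median. Krt6b and Krt16 medians are far apart between the outer classes (18.5 against 521.6 and 64.7 against 3436 TPM), Krt5, Krt14 and Krt17 medians lie close to each other, and all ranges overlap.

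Markers of other cells were set beside the simple keratins. Of 8 Merkel cell markers, 3 reached 1 TPM in any reporter-positive library, their summed level had a median of 0 (at most 11.6 TPM), and Atoh1, Isl1, Krt20 and Syp were listed at 0. The summed fibroblast list had a median of 144.7 TPM (0 to 587.96) in the 63 reporter-positive libraries with Krt8 or Krt18 and 24.9 TPM (0 to 163.65) in the other 42, and 158.3 against 2.38 TPM on OT2. Nearly all of it was Fbln2, a matrix glycoprotein gene, with medians of 144.7 and 21.9 TPM. The other 7 fibroblast genes had medians of 0 in both classes but were detected in some libraries, Col1a1 in 10 of 63 and 4 of 42, Col3a1 in 9 and 3, and the receptor gene Pdgfra in 10 and 0. On OT2 Col3a1, Dcn, Lum and Dpt were listed at 0. Keratinocyte markers led in all of these libraries.

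Sebaceous markers had summed medians of 34.96 and 45 TPM and hair follicle bulge markers of 31.8 and 12.7 TPM in reporter-positive libraries with and without the simple keratins. The bulge list includes Cd34, on which this gate was sorted, and its Lhx2 was listed at 0. Immune and melanocyte lists had medians of 0 in both. The endothelial list had medians of 6.41 and 0 TPM and the pericyte or muscle list of 25.02 and 18.3 TPM. Of the 7 endothelial genes 3 reached 1 TPM in any reporter-positive library, and Tek, Emcn and Cldn5 were listed at 0. These sums were not split by gene. The part of other cells in the keratin differences was not tested.

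Other genes of simple and glandular epithelium were in part higher in the same gate. Of 21 listed, 16 reached a mean of 1 TPM in the comparison of reporter-positive over CD44-negative α6+ cells, 7 were at least 2-fold higher (Cldn3 and Cldn7 against a gate listed at 0) and 0 lower, beside 9.8% and 4.78% of all genes, and their median log2 fold was 0.64 beside 0.07 over all genes. Cldn4, a tight junction claudin, averaged 75.8 against 2.68 TPM, the secreted protein gene Wfdc2 15.5 against 0.458 TPM and the adhesion gene Epcam 64.7 against 14.3 TPM. Over CD44+ reporter-negative cells 5 of 17 were higher (again with Cldn3 and Cldn7 against a gate listed at 0) and 3 lower, beside 12.6% and 16.5% of all genes. The lower ones were Elf3 and Ehf, which encode epithelial ETS factors, and Lcn2. After ACT 4 of 16 were at least 2-fold lower than in reporter-positive cells, beside 8.6% of all genes, with Cldn4 at 14.6, Epcam at 19.1, Wfdc2 at 5.57 and Cldn3 at 0.056 TPM, and Lcn2 was higher.

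Of the other type II keratins, 7 of 14 passed the minimum in reporter-positive over CD44-negative α6+ cells, 0 were higher and 3 lower, beside 9.8% and 4.78% of all genes. Krt1, the suprabasal partner of Krt10, averaged 42.1 against 561.5 TPM. Of the type I keratins 6 of 13 passed, with Krt17 and Krt42 higher, and Krt15 (1.45 against 74.4 TPM) and Krt10 (7.15 against 122.97 TPM) lower. After ACT, relative to reporter-positive cells, 4 of 6 other type II keratins were at least 2-fold higher and 0 lower. Of 7 other type I keratins 3 were higher and 2 lower, beside 3.17% and 8.6% of all genes. Krt10 and Krt1 had log2 folds of 4.87 and 3.90, opposite in sign to those of Krt8 and Krt18, whereas the 2 lower type I keratins had the same sign as Krt8 and Krt18.

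Genes for linkers and binding proteins of keratin filaments differed little. Of 15 measured, 2 were at least 2-fold higher in reporter-positive than in CD44-negative α6+ cells and 0 lower, beside 9.8% and 4.78% of all genes, with a median log2 fold of 0.16. Hspb1, a small heat shock protein gene, averaged 781.0 against 182.7 TPM, and the plakophilin gene Pkp2 1.92 against 0.427 TPM. Over CD44+ reporter-negative cells 1 of 15 was higher, again Hspb1, beside 12.6% of all genes. After ACT Hspb1 was the 1 of 15 that was lower than in reporter-positive cells, at 358.9 TPM, beside 8.6% of all genes.

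Of 20 transcription factors described at simple keratin loci, 3 were at least 2-fold higher and 1 lower in reporter-positive than in CD44-negative α6+ cells, beside 9.8% and 4.78% of all genes, with a median log2 fold of -0.07. Hmga2, a chromatin factor, averaged 22.6 against 1.55 TPM, Sox9 20.8 against 7.52 TPM and the AP-1 gene Fosl1 16.8 against 6.63 TPM. Gata3 was the lower one, at 8.81 against 26.9 TPM. Over CD44+ reporter-negative cells 2 were higher and 8 lower, beside 12.6% and 16.5% of all genes, with Fosb, Jun, Fos and Junb among the lower. Keratinocyte markers led in 12 of the 15 CD44+ libraries. The list folds over this gate, here and above, were not recomputed for those libraries alone. After ACT 3 of 20 were lower than in reporter-positive cells, beside 8.6% of all genes, with Hmga2 at 4.18, Sox9 at 8.64 and Sox4 at 0.98 TPM.

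The genes whose levels were most like those of each member were sought across reporter-positive cells, among 9705 genes detected in at least 20% of the libraries of CSC1 and of CSC2. For Krt8 the highest mean within-plate Pearson r was that of Krt18 (0.71), followed by Basp1 (0.64), Wfdc2 (0.63), Samd4 (0.63) and Pcolce2 (0.62), and the median over all genes was 0.06. On OT2 these 5 had r of 0.69, 0.35, 0.55, 0.22 and 0.55. By Spearman's rho Krt18 was again first, and the other 4 were not among the first 5.

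For Krt18 the genes most alike included Soat1, a cholesterol-esterifying enzyme (0.71), an antisense transcript listed as RP23-71G16.6 (0.71), Krt8 (0.71) and the potassium channel gene Kcnn4 (0.70), with a median of 0.08 over all genes. On OT2 these had r of 0.83, 0.79, 0.69 and 0.86. The antisense transcript is Gm4610 in the annotation and lies inside Bcar3 on the opposite strand, and without strand its reads cannot be told apart from those of Bcar3. The values of r among these genes lie so close that their order is not read.

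Some transcripts could share reads with the members. Krt8-ps, a processed pseudogene, matched a Krt8 transcript at 98.6% over 941 bases, and Gm36026, a lincRNA on the plus strand, overlaps the Krt8 start with identical sequence. Neither is a row of the tables, so reads from them could be counted as Krt8. The closest Krt18 pseudogenes, Gm5200 and Gm17847, matched at 90.2% and 86.4%, the second listed at 0 in all libraries compared.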

How the data were processed

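Single tumour cells of 5 sorted gates were profiled by Smart-seq2. Per the submitters' processing notes, reads went through Bowtie2 2.2.9 and RSEM 1.2.30 with mm10, and the authors deposited TPM per gene and library. Read depth cannot be had from TPM, and detected genes (median 5521 to 7760 per gate) serve in its place. A few ribosomal RNA rows take most of the TPM and differ between libraries, which lowers all other values. Of 908 libraries, 696 had at least 2000 genes at 1 TPM or more, and 431 remained after plates that repeat others were left out. Here shares were computed with exact Clopper-Pearson 95% intervals, for counting error only, and a 0 with its limit of 3 libraries. Folds are ratios of mean TPM plus a pseudocount of 1. A gene entered a comparison at a mean of 1 TPM in either gate. No fold is given against a gate listed at 0. No animals are named, so no test across samples was made. Near-identical libraries were matched by Pearson's r of log2(TPM + 1), computed here. A pair was taken at r of at least 0.88, or as mutual best match by a margin of 0.05 in r. The genes named are the 4 members, the 5 most like Krt8 and Krt18 (1 of them is not reported here), and genes of the lists past 2-fold. Members and lists were chosen with earlier results of these data known. Scripts used python 3.11.15, numpy 2.4.6, pandas 2.3.3, scipy 1.17.1, and blastn 2.17.0 for similar transcripts. Alternatives changed the pseudocount, detection threshold, gene minimum, gene band, scaling, averaging and plates.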

Additional observations from a re-analysis of the deposited data

Results flagged for a closer look

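Of the 4 plates that the comparisons did not use, 3 held simple keratins above the CD44-negative α6+ gate, where Krt8 was found in 0 of 91 libraries and Krt18 in 4.40%. On OT_C, which repeats CSC1, Krt8 was found in 37.5% of 72 libraries and Krt18 in 63.9%. On OT_D, which repeats CSC2 and the CD44+ reporter-negative libraries, Krt8 was found in 22.2% of 45 libraries and Krt18 in 35.6%. On OT_A, which repeats OT2, Krt8 was found in 10.1% of 79 libraries. On OT1, which repeats OT_B, Krt8 was found in 0 of 69 libraries and Krt18 in 2.90%, not above that gate. These plates are near-identical to libraries used above, so their values are no further evidence.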

How the results depend on the processing

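Of 98 recomputed log2 folds, 61 stayed within 1.5-fold of the value given, 36 moved and 1 reversed. Of 86 recomputed shares 75 stayed, and of 17 pairing values 15 did. With a pseudocount of 10 TPM, reporter-positive over CD44+ reporter-negative cells gave 1.81 (Krt8) and 1.74 (Krt18), and Krt18 over CD44-negative α6+ cells gave 2.36 in reporter-positive, 0.63 in CD44+ and 1.09 in cells after ACT, while Krt8 after ACT over reporter-positive gave -1.54. With 0.1 TPM, Krt18 over CD44-negative cells gave 6.15, 3.35 and 4.34 in that order, and with TPM rescaled without spike-ins and ribosomal rows 5.76, 3.22 and 3.88. With means of log2(TPM + 1) these were 2.94, 0.51 and 0.46, Krt8 over CD44+ cells was 1.33, and Krt8 and Krt18 after ACT over reporter-positive were -1.52 and -2.48. With 6000 to 8000 genes, reporter-positive over CD44+ cells gave 5.40 and 4.699, Krt18 in CD44+ over CD44-negative cells 0.61, and Krt8 after ACT over reporter-positive -3.06. Without CSC1, Krt18 gave 1.998 over CD44+ cells, 4.25 over CD44-negative cells and, after ACT over reporter-positive, -1.10. Without OT2, Krt18 after ACT gave -4.99 over reporter-positive and -0.10 over CD44-negative cells, the reversal, and Krt8 had no value because OT_B is listed at 0. Without OT_B, after ACT over reporter-positive gave -1.47 (Krt8) and -0.80 (Krt18), and Krt18 over CD44-negative cells 4.09. With all libraries as labelled after ACT these were -1.33, -1.10 and 3.79. Leaving out the highest library of a gate, a choice made after seeing the data, gave 5.21 (Krt8) and 4.86 (Krt18) for reporter-positive over CD44+ cells without the highest CD44+ library. It gave 0.030 for Krt18 in CD44+ over CD44-negative cells, and -3.09 for Krt8 after ACT over reporter-positive without the highest library after ACT. Pseudocounts move folds by construction, and otherwise the cause was not tested.

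With no gene minimum, reporter-positive shares were 22.2% (Krt8) and 40.5% (Krt18). At 10 TPM or more Krt18 was in 47.6% of reporter-positive, 1.10% of CD44-negative and 0% of α6-negative libraries, and in 0% of keratinocyte-led α6-negative libraries. Krt8 was in 0% of CD44+ libraries with 6000 to 8000 genes. After ACT, OT2 alone gave 8.05% for Krt8, 17.2% for Krt18 and 8.05% for both together, and OT_B alone gave 0%, 3.33% and 0%. By Spearman's rho, 1 of the 5 genes most like Krt8 and 3 of 5 for Krt18 were again among the first 5. No paired analysis was possible because the gates carry no shared replicate numbers and no result comes from a test.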

Other observations

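Vim, the type III filament gene of mesenchymal cells, was chosen after its values were seen. It was detected in 34 of 63 reporter-positive libraries with Krt8 or Krt18 and in 7 of 42 without. On CSC1 the counts were 32 of 46 and 4 of 27. On CSC2 they were 2 of 17 and 3 of 15, so the difference of CSC1 was not seen there. The CSC2 counts are too small to give a direction. On OT2 the counts were 8 of 15 and 1 of 72. Among reporter-positive libraries with 6000 to 8000 genes they were 18 of 32 and 3 of 26.

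Genes opposite to the members across reporter-positive cells included Krtdap, a differentiation gene of epidermis (mean r -0.49 with Krt8), Stfa3 (-0.48 with Krt8 and -0.58 with Krt18) and the fatty acid-binding protein gene Fabp5 (-0.59 with Krt18). On OT2 the values were -0.49 for Krtdap with Krt8, -0.57 and -0.80 for Stfa3, and -0.68 for Fabp5 with Krt18.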
